A study of Mus musculus with 9 samples.

Results

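The genes described here were 50 mouse genes of the antioxidant system: NRF2 (Nfe2l2) and its partners, the enzymes that make and use glutathione, the thioredoxin and peroxiredoxin enzymes, the suppliers of NADPH and enzymes that detoxify aldehydes, epoxides and quinones. They were taken by symbol, with no cut-off on a measured value, from a list drawn up when earlier results of these data were known, and 48 of them had a row among the 19044 genes of the count table. Gpx2 and Gpx7 were not analysed here. Of the 48, 44 passed a filter on low counts (filterByExpr), and Gpx3, Gsta1, Gstt1 and Aldh1a3 did not.

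RNA was sequenced from mouse squamous cell carcinoma (SCC) cells in 3 groups of 3 replicates. The cells came from a chemically induced tumour of FVB mice in which a tamoxifen-activated Cre under the keratin 14 promoter can delete floxed Ptk2, the gene of focal adhesion kinase (FAK). FAK-/- cells had lost the gene in culture with 4-hydroxytamoxifen. FAK-WT and FAK-kd cells were made from a FAK-/- clone that received wild-type FAK or kinase-deficient FAK by retrovirus. All 3 groups therefore carried the deletion of the cells' own gene, both re-expressing lines had in addition been infected and selected, and each group stands for 1 cell line, so that the 3 replicates measure the spread within a line and not between clones.

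NRF2 is a transcription factor that Keap1 holds back and sends for degradation in unstressed cells. When oxidants or electrophiles modify Keap1, NRF2 enters the nucleus, pairs with a small Maf protein and binds antioxidant response elements, which Bach1 can occupy as a repressor. Its targets make glutathione, reduce quinones, peroxides and disulfides, conjugate and export electrophiles and supply NADPH, and the pathway is often active in squamous carcinomas. Much of this control acts on the NRF2 protein, which RNA counts do not measure.

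Values are CPM, read counts scaled to library size with TMM. A difference is called here when the Benjamini-Hochberg adjusted p of edgeR's quasi-likelihood test, fitted to all 19044 genes, was at most 0.05, and past the threshold when the log2 fold change was in addition at least 1 or at most -1. FAK-WT replicate 1 held 779755 counts and the other 8 libraries between 25304994 and 37264636, so that 1 count in that library is worth 1.26 CPM and genes under 3.78 CPM had fewer than 3 counts in it. Ptk2 had 215 ± 1.92 CPM (SD, n = 3) in FAK-WT cells, 21.6 ± 1.93 in FAK-/- cells and 163 ± 11.5 in FAK-kd cells. FAK-/- replicate 3 and FAK-kd replicate 1 stood apart from the other libraries of their groups, with a chi-square per degree of freedom of 50.9 to 55.7 and of 16.2 to 18.0 against them. The remaining pairs of deep libraries gave 3.25 to 5.72. FAK-WT replicate 1 gave 2.58 and 2.32 against replicates 2 and 3. This statistic grows with depth, so the values of that shallow library do not show how well it matched its group. Of the 6 epithelial markers with a row, 5 (Krt5, Krt14, Krt8, Krt18 and Cdh1) were under 2 CPM in every library, while Itga6 lay between 169 and 297 CPM. The summed fibroblast markers lay between 530 and 827 CPM, mostly Col6a3, and the immune and endothelial markers summed to at most 3.36 and 2.05 CPM.

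In FAK-WT against FAK-/- cells 14 of the 48 genes were called (29.2%, against 18.0% of all genes), 7 higher in FAK-WT (8.01% of all genes) and 7 lower (9.96%). In FAK-WT against FAK-kd cells 20 were called (41.7%, against 17.7%), 8 higher (7.58%) and 12 lower (10.2%). In FAK-kd against FAK-/- cells 11 were called (22.9%, against 7.84%), 9 higher (3.97%) and 2 lower (3.88%). The list is expressed at higher levels than most of the table, and the gap to the background was smaller in a fit of the genes that passed the filter, with 34.1% against 29.3%, 45.5% against 29.0% and 25.0% against 13.3%. The 3 libraries of 1 group lay wholly above or below those of the other in 26 genes (54.2%, against 29.6% of all genes), 28 genes (58.3%, against 32.8%) and 20 genes (41.7%, against 25.3%). The first group named was the lower in 16, 20 and 5 of these genes and the higher in 10, 8 and 15. The changes went both ways and most were small. The median log2 fold change of the 48 genes was -0.02, -0.02 and 0.07 in the 3 comparisons, beside 0.00 for all genes, and 2, 3 and 1 genes were past the threshold (5.38%, 5.26% and 2.01% of all genes). For the 44 genes that passed the filter the median was -0.03, -0.10 and 0.06, beside -0.02, -0.02 and 0.01 for all genes that passed. The 3 comparisons share their libraries, so none of them is independent of the others, and 21 of the 48 genes were called in none, of which DESeq2 called Pgd and Prdx2 in 1 comparison each.

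**Figure D1:**
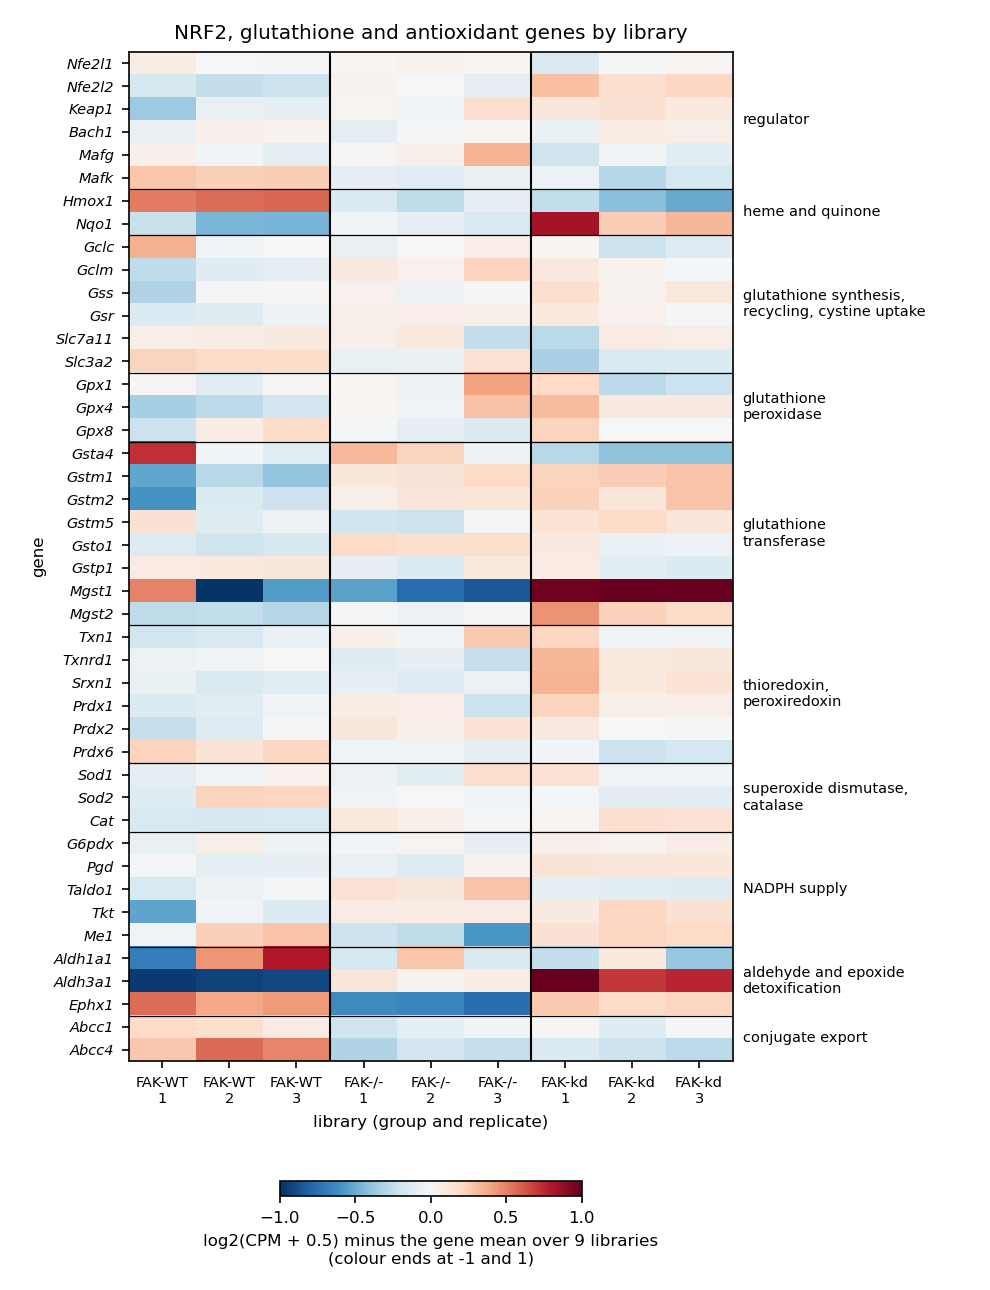
Each row is 1 of the 44 genes that passed the filter on low counts, grouped by role, and each column is 1 library. Colour gives log2(CPM + 0.5) minus the gene's mean over the 9 libraries, with the scale ending at -1 and 1. Aldh3a1, Ephx1, Hmox1, Nqo1 and Mgst1 separate the groups most visibly, and FAK-kd replicate 1 is the highest of its group in 29 of the 44 genes.

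The regulators changed little, and NRF2's own transcript was among those that did. Nfe2l2 (chr2:75675513-75704641, minus strand, GRCm38) had 313, 298 and 302 CPM in FAK-WT cells, 360, 349 and 327 in FAK-/- cells and 432, 395 and 405 in FAK-kd cells. No 2 groups overlapped, and the FAK-kd libraries were the highest. Nfe2l2 was lower in FAK-WT than in FAK-kd cells by a log2 fold change of -0.44 ± 0.07 (SE, adjusted p = 0.00023) and higher in FAK-kd than in FAK-/- cells by 0.25 ± 0.06 (adjusted p = 0.028), while FAK-WT against FAK-/- gave -0.19 ± 0.07 (adjusted p = 0.066). Without FAK-kd replicate 1 the difference between FAK-kd and FAK-/- was 0.20 (adjusted p = 0.1), and this call was lost in 6 of the 9 fits that left out 1 library.

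Keap1, the adaptor that hands NRF2 to a ubiquitin ligase, had 71.8, 87.4 and 86.3 CPM in FAK-WT cells, 93.8, 90.6 and 104 in FAK-/- cells and 100, 103 and 98.6 in FAK-kd cells. It was lower in FAK-WT than in FAK-kd cells (log2 fold change -0.25 ± 0.08, adjusted p = 0.04), a call lost in 8 of the 9 fits that left out 1 library. Mafk, a small Maf partner of NRF2 and of Bach1, went the other way and was higher in FAK-WT cells, with 37.9 to 39.0 CPM, than in FAK-/- cells, with 29.8 to 30.6, and in FAK-kd cells, with 26.2 to 30.8. The log2 fold changes were 0.34 ± 0.09 (adjusted p = 0.018) and 0.42 ± 0.09 (adjusted p = 0.0044), the first lost without FAK-WT replicate 2 (adjusted p = 0.078) or 3 (adjusted p = 0.09). The repressor Bach1, the related factor Nfe2l1 and the small Maf gene Mafg were called in no comparison, with log2 fold changes between -0.25 and 0.07.

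Promoter sequence was available from RefSeq (GRCm38.p6) for 40 of the 48 genes, as 55 windows of 250 bases before an annotated start. An antioxidant response element core (TGACNNNGC, either strand) stood in 12 of the 55 windows (21.8%), against 10.2% of all 32851 windows. Some windows overlap annotated exons of their gene. Of those with a core, the G6pdx window lies in exons with all 250 bases and the Mgst1 window with 211. The AP-1 motif TGANTCA, which can lie within a longer antioxidant response element, stood in 6 windows (10.9%, against 6.75%), and the aryl hydrocarbon receptor core GCGTG in 30 (54.5%, against 28.2%). These letters are a description of the windows and do not show that a factor was bound. Of the 6 genes called both lower in FAK-WT than in FAK-kd cells and higher in FAK-kd than in FAK-/- cells, the windows of Nfe2l2, Srxn1, Mgst2 and Nqo1 are shown. Aldh3a1 had no entry, and the windows of Mgst1 lie mostly in annotated exons. Each is written from 5′ to 3′ on the strand of the gene, and capitals mark the motifs searched.
Nfe2l2, chr2:75704664-75704913, minus strand: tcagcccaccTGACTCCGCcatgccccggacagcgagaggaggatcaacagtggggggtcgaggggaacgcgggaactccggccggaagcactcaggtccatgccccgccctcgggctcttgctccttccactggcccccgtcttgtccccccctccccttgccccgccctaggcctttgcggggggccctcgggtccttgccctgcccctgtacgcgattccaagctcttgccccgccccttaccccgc
Srxn1, chr2:152105274-152105523, plus strand: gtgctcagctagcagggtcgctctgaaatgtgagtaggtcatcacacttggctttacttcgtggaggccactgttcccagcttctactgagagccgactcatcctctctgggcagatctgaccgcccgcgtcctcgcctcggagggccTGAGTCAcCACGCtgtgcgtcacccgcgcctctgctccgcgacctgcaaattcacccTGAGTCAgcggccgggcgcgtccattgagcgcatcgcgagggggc
Mgst2, chr3:51660929-51661178, plus strand: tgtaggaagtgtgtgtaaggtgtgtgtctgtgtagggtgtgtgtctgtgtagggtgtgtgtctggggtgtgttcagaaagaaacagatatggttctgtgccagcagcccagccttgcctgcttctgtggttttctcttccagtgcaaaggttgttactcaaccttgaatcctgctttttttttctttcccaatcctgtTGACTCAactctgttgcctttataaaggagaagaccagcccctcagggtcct
Nqo1, chr8:107403206-107403455, minus strand: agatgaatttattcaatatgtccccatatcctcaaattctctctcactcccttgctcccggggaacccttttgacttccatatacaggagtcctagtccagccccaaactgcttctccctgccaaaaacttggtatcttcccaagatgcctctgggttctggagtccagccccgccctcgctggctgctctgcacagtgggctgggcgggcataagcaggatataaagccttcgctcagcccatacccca
The Nfe2l2 window held 1 antioxidant response element core (TGACTCCGC, first base at -240 from the start). The Srxn1 window held the AP-1 motif at -102 and at -45, beside an aryl hydrocarbon receptor core on the other strand at -94, and the Mgst2 window held the AP-1 motif once at -52. Only antioxidant response element cores that begin with TGAC were searched, so the TGAGTCAGC at -45 in the Srxn1 window was not counted as one. None of the 3 motifs was in the 250 bases of the Nqo1 window, and sequence further upstream was not searched for any gene. Antioxidant response element cores on the opposite strand also stood in windows of Gclm (GCACCGTCA at -134), Txnrd1 (GCTTTGTCA at -92) and Mgst1 (GCACGGTCA at -56). The remaining windows with a core were both windows of Abcc4 and those of G6pdx, Gstm5, Mafg, Mafk, Prdx1 and Sod1. Of these genes, Abcc4 and Mafk were called higher in FAK-WT cells, and the others were called in no comparison. Hmox1 had no promoter entry.

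Hmox1 and Nqo1, the most widely used readouts of NRF2, moved in opposite directions. Hmox1 (chr8:75093621-75100589, plus strand), which encodes the heme-degrading enzyme heme oxygenase 1, had 46.6, 48.0 and 48.6 CPM in FAK-WT cells, 29.4, 27.0 and 30.6 in FAK-/- cells and 27.2, 24.1 and 22.8 in FAK-kd cells. All FAK-WT libraries were above all others, and the FAK-/- and FAK-kd libraries overlapped. It was higher in FAK-WT cells by a log2 fold change of 0.73 ± 0.10 against FAK-/- (adjusted p = 8e-05) and of 0.96 ± 0.10 against FAK-kd cells (adjusted p = 5.2e-06). The latter was 1.05 without FAK-kd replicate 1.

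Nqo1 (chr8:107388225-107403206, minus strand), which encodes a quinone reductase, had 36.5, 30.9 and 30.7 CPM in FAK-WT cells, 41.8, 40.3 and 38.4 in FAK-/- cells and 76.2, 50.7 and 53.8 in FAK-kd cells. The groups did not overlap, and the order was FAK-WT, FAK-/- and FAK-kd from low to high. Nqo1 was lower in FAK-WT than in FAK-kd cells (log2 fold change -0.94 ± 0.14, adjusted p = 0.00018) and higher in FAK-kd than in FAK-/- cells (0.58 ± 0.13, adjusted p = 0.01), while FAK-WT against FAK-/- gave -0.35 ± 0.14 (adjusted p = 0.098). FAK-kd replicate 1 held 1.46 times the mean of replicates 2 and 3. Without it the first value was -0.72 (adjusted p = 0.00033) and the second 0.37 (adjusted p = 0.035).

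**Figure D2:**
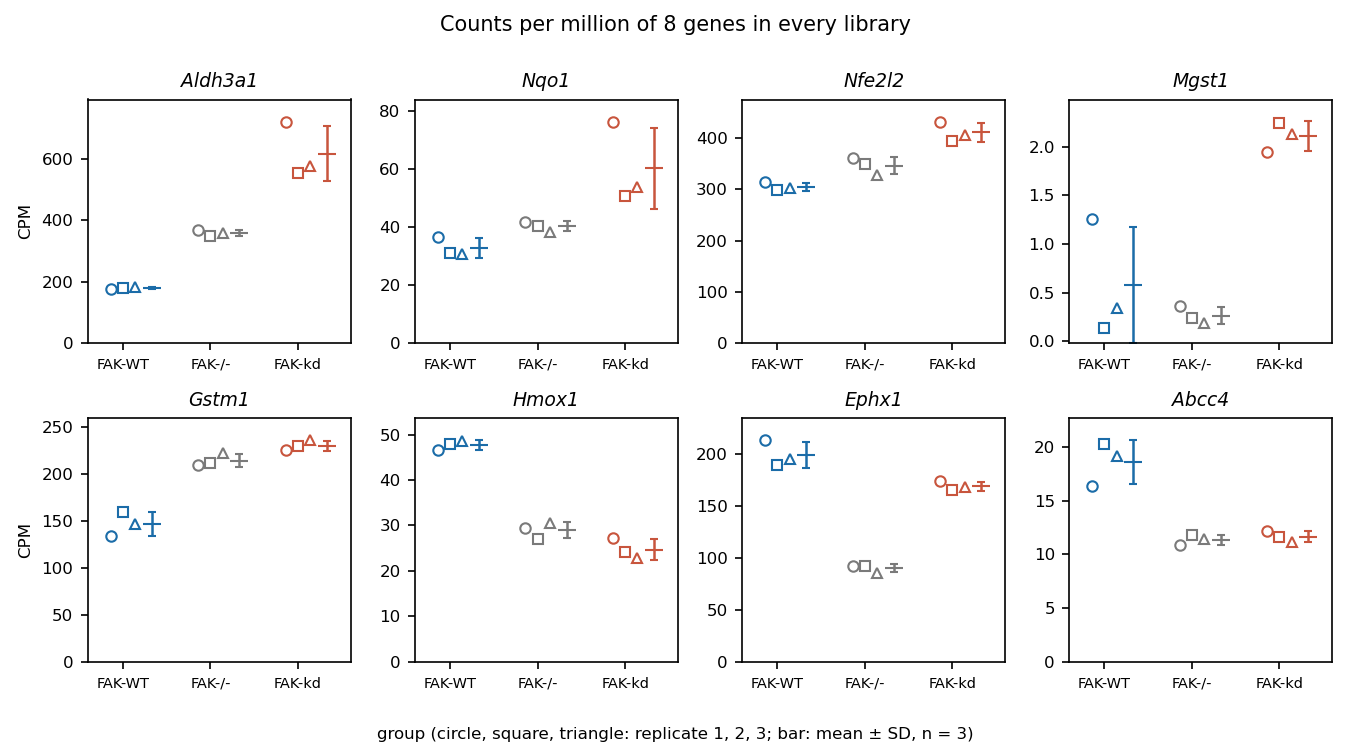
CPM of 8 genes in every library, by group. Circles, squares and triangles are replicates 1, 2 and 3, and bars give the mean ± SD (n = 3). Aldh3a1, Nqo1, Nfe2l2 and Mgst1 are highest in the FAK-kd libraries, Hmox1 and Abcc4 in the FAK-WT libraries, while Ephx1 is lowest in FAK-/- and Gstm1 in FAK-WT libraries.

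The genes that take up cystine and build and recycle glutathione were called at a share close to that of all genes in the comparisons of FAK-WT. Of the 6, 1 (16.7%, beside 18.0% of all genes) was called in FAK-WT against FAK-/- and 1 (beside 17.7%) in FAK-WT against FAK-kd cells. In FAK-kd against FAK-/- cells edgeR and DESeq2 called 0, and 1 (Slc3a2) had an unadjusted p under 0.05. Gclc, the catalytic subunit of the rate-limiting ligase, had 122, 93.3 and 95.8 CPM in FAK-WT cells, 90.6, 94.9 and 100 in FAK-/- cells and 96.5, 82.0 and 87.0 in FAK-kd cells, with log2 fold changes between -0.11 and 0.16. Its modifier subunit Gclm had 106, 116 and 118, then 134, 130 and 147, and then 135, 130 and 125 CPM in the same order of groups. All FAK-WT libraries of Gclm were below all others, and it was called against FAK-/- (log2 fold change -0.25 ± 0.07, adjusted p = 0.025) and not against FAK-kd cells (-0.17 ± 0.07, adjusted p = 0.13). The call was lost in 5 of the 9 fits that left out 1 library, among them the one without FAK-WT replicate 1 (adjusted p = 0.055), and with the replicate block (adjusted p = 0.051).

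Slc7a11, the cystine-glutamate exchanger and a standard NRF2 target, had 51.6, 52.3 and 52.8 CPM in FAK-WT cells, 51.4, 53.1 and 41.9 in FAK-/- cells and 41.0, 52.4 and 51.9 in FAK-kd cells. Its low values were those of FAK-/- replicate 3 and FAK-kd replicate 1, the libraries that stood apart, and its log2 fold changes lay between -0.01 and 0.11. Slc3a2, the heavy chain that carries Slc7a11 and other amino acid transporters to the membrane, was higher in FAK-WT cells (167 to 172 CPM) than in FAK-kd cells (118 to 134 CPM), with a log2 fold change of 0.39 ± 0.08 (adjusted p = 0.0025). Glutathione synthetase Gss and glutathione reductase Gsr were called in no comparison.

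Of the 4 glutathione peroxidases with a row, 1 (Gpx4, 25.0%) was called in each comparison of FAK-WT, beside 18.0% and 17.7% of all genes. Among the genes that passed the filter the shares were 29.3% and 29.0%, so the count is near the background. In FAK-kd against FAK-/- cells 0 were called, beside 7.84% of all genes. Gpx4, which reduces lipid hydroperoxides in membranes and holds back ferroptosis, had 254, 268 and 283 CPM in FAK-WT cells, 325, 311 and 393 in FAK-/- cells and 399, 342 and 341 in FAK-kd cells. All FAK-WT libraries were below all others, with log2 fold changes of -0.34 ± 0.09 against FAK-/- (adjusted p = 0.018) and -0.42 ± 0.09 against FAK-kd cells (adjusted p = 0.0053). The first was lost without FAK-WT replicate 2 (adjusted p = 0.077). Of the 31-base words of Gpx4 transcripts, 38.9% also occur in transcripts of other genes, foremost the pseudogene Gpx4-ps2, so its counts could be split between copies. Gpx1, the cytosolic form, and Gpx8, of the endoplasmic reticulum, were not called, and Gpx3, the secreted form, was at most 0.106 CPM in any library.

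Among the 10 glutathione transferases 3, 4 and 3 were called in the 3 comparisons (30.0%, 40.0% and 30.0%, beside 18.0%, 17.7% and 7.84% of all genes and 29.3%, 29.0% and 13.3% of the genes that passed the filter). In FAK-WT against FAK-/- cells the share was thus close to that of the filtered genes. Those called in the comparisons of FAK-WT were lower in FAK-WT cells. Gstm1, a mu-class enzyme that conjugates electrophiles to glutathione, had 135, 160 and 147 CPM in FAK-WT cells, 210, 212 and 222 in FAK-/- cells and 226, 230 and 236 in FAK-kd cells, with log2 fold changes of -0.52 ± 0.07 (adjusted p = 8.1e-05) and -0.62 ± 0.07 (adjusted p = 1.4e-05). Its neighbour Gstm2 gave -0.32 ± 0.10 (adjusted p = 0.038) and -0.43 ± 0.10 (adjusted p = 0.0061), and of its words 12.2% are shared with other genes, against 28.8% for Gstm1. The first Gstm2 call was lost in 7 of the 9 fits that left out 1 library (adjusted p up to 0.145) and with the replicate block (adjusted p = 0.054). Gsto1, the omega-class enzyme, was lower in FAK-WT cells than FAK-/- cells (-0.35 ± 0.07, adjusted p = 0.002). The alpha-class gene Gsta4 was lower in FAK-kd than in FAK-/- cells (-0.58 ± 0.16, adjusted p = 0.044), a call lost in 7 of the 9 fits that left out 1 library.

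The microsomal transferases Mgst1 and Mgst2 were highest in FAK-kd cells. Mgst1 (chr6:138140316-138156755, plus strand) was weakly expressed, with 1.26, 0.133 and 0.346 CPM in FAK-WT cells, 0.36, 0.237 and 0.192 in FAK-/- cells and 1.95, 2.25 and 2.14 in FAK-kd cells. The value of FAK-WT replicate 1 rests on 1 count. Over each group the libraries held 18 counts in FAK-WT cells, 24 in FAK-/- cells and 213 in FAK-kd cells, and FAK-kd cells had 7.91 times the level of FAK-/- cells, with a 95% interval of 5.18 to 12.6 that covers counting error only. It was past the threshold in FAK-WT against FAK-kd (log2 fold change -3.01 ± 0.47, adjusted p = 0.00028) and in FAK-kd against FAK-/- cells (2.97 ± 0.41, adjusted p = 0.00025), and FAK-WT against FAK-/- gave -0.03 ± 0.50. Mgst2 had 44.3 to 45.6 CPM in FAK-WT cells, 51.9 to 53.5 in FAK-/- cells and 61.5 to 74 in FAK-kd cells. The log2 fold changes were -0.56 ± 0.09 for FAK-WT against FAK-kd (adjusted p = 0.00032) and 0.33 ± 0.08 for FAK-kd against FAK-/- cells (adjusted p = 0.023), the latter 0.23 (adjusted p = 0.12) without FAK-kd replicate 1 and lost in 7 of the 9 fits that left out 1 library.

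Gstp1, the pi-class enzyme, was not called, with log2 fold changes between -0.01 and 0.15, and 38.5% of its words are shared with Gstp2 and other copies. Per kilobase of the median coding transcript, the transferases ranked Gsto1 (245 CPM), Gstp1 (175), Gstm1 (167) and Mgst2 (92.7) in FAK-WT cells, and Gsto1 (310), Gstm1 (243), Gstp1 (159) and Mgst2 (109) in FAK-/- cells. In FAK-kd cells Gsto1 and Gstm1 stood at 273 and 261 CPM per kilobase. Gsta1 and Gstt1 were below 0.5 CPM in every library, and 92.9% of the words of Gsta1 occur in other genes.

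**Figure D3:**
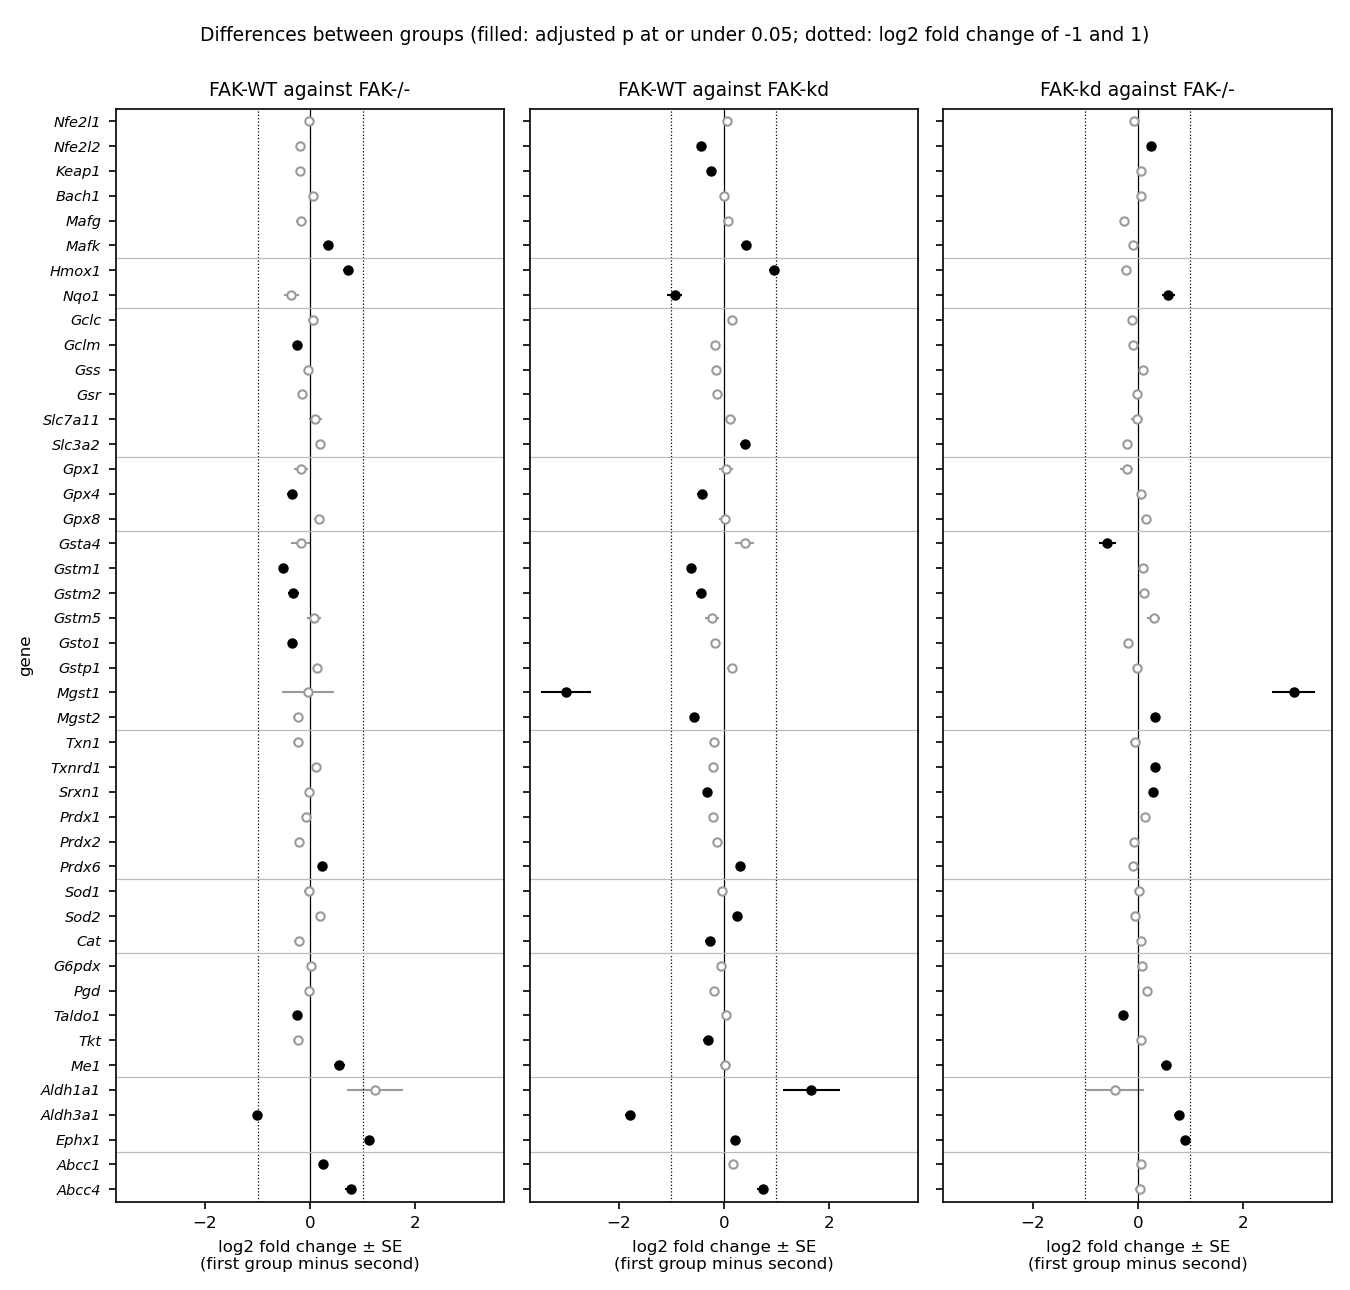
Log2 fold change ± SE (first group minus second) of the 44 genes that passed the filter, in the 3 comparisons. Filled points had an adjusted p of at most 0.05 in edgeR's quasi-likelihood test, and dotted lines mark -1 and 1. Most points lie between the dotted lines, with Aldh3a1, Mgst1, Ephx1 and Aldh1a1 outside them or at them in at least 1 comparison.

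In the thioredoxin branch the reductase and sulfiredoxin had their highest levels in FAK-kd cells. Txnrd1, the selenoenzyme that reduces thioredoxin with NADPH, had 225, 229 and 233 CPM in FAK-WT cells, 215, 221 and 199 in FAK-/- cells and 295, 251 and 254 in FAK-kd cells. Srxn1, which reduces overoxidized peroxiredoxins, had 127, 120 and 124 CPM in FAK-WT cells, 126, 122 and 128 in FAK-/- cells and 170, 142 and 147 in FAK-kd cells. For both genes all FAK-kd libraries were above all others, and FAK-kd replicate 1 was the highest.

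Txnrd1 was called in FAK-kd against FAK-/- cells (log2 fold change 0.33 ± 0.07, adjusted p = 0.012) and gave -0.21 ± 0.08 in FAK-WT against FAK-kd cells (adjusted p = 0.071). Srxn1 was called in both, at 0.29 ± 0.07 (adjusted p = 0.022) and -0.31 ± 0.08 (adjusted p = 0.0087). Without FAK-kd replicate 1 the values against FAK-/- were 0.24 for Txnrd1 (adjusted p = 0.06) and 0.20 for Srxn1 (adjusted p = 0.096). The Srxn1 calls were lost in 4 and 2 of the 9 such fits. Prdx6, a peroxiredoxin that also acts on phospholipids, went the other way and was higher in FAK-WT cells, with 276 to 293 CPM, than in FAK-/- cells (238 to 246) and FAK-kd cells (218 to 247). The log2 fold changes were 0.23 ± 0.07 (adjusted p = 0.027) and 0.32 ± 0.07 (adjusted p = 0.0041), and the first call was lost in 5 of the 9 fits that left out 1 library (adjusted p = 0.062 without FAK-WT replicate 1 and up to 0.139). Thioredoxin Txn1 and the peroxiredoxins Prdx1 and Prdx2 were called in no comparison.

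Of the 3 genes for superoxide dismutases and catalase, edgeR and DESeq2 called 0 in FAK-WT or FAK-kd against FAK-/- cells, beside 18.0% and 7.84% of all genes in edgeR. With so few genes, a count of 0 does not set them apart from the background. In FAK-WT against FAK-/- cells 2 (Cat and Sod2) had an unadjusted p under 0.05. In FAK-WT against FAK-kd cells 2 of the 3 were called (66.7%, beside 17.7% of all genes). The mitochondrial Sod2 was higher (0.25 ± 0.08, adjusted p = 0.041, with overlapping libraries) and catalase, Cat, lower (-0.27 ± 0.09, adjusted p = 0.046). These calls were lost in 7 (Sod2) and 6 (Cat) of the 9 fits that left out 1 library. The cytosolic Sod1 had log2 fold changes between -0.04 and 0.02.

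Among the suppliers of NADPH, malic enzyme Me1 was lowest in FAK-/- cells. Me1 had 66.7, 80.9 and 83.7 CPM in FAK-WT cells, 59.5, 57.4 and 45.6 in FAK-/- cells and 76.1, 79.9 and 78.7 in FAK-kd cells, so that all FAK-/- libraries were below all others. Its log2 fold changes against FAK-/- cells were 0.56 ± 0.10 for FAK-WT (adjusted p = 0.001) and 0.53 ± 0.10 for FAK-kd cells (adjusted p = 0.0027), and 36.9% of its words are shared, foremost with Gm7049. Transaldolase, Taldo1, was highest in FAK-/- cells (301 to 340 CPM, against 252 to 275 in FAK-WT and 256 to 264 in FAK-kd cells), with log2 fold changes of -0.24 ± 0.07 (adjusted p = 0.022) and -0.29 ± 0.07 (adjusted p = 0.014). Transketolase, Tkt, was lower in FAK-WT than in FAK-kd cells (-0.30 ± 0.09, adjusted p = 0.024). Leaving out 1 library cost the Taldo1 calls in 3 and 2 of the 9 fits and the Tkt call in 3. The dehydrogenases of the oxidative pentose phosphate branch, G6pdx and Pgd, were called in no comparison, with log2 fold changes between -0.19 and 0.17.

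The largest differences in CPM among the 48 genes were those of Aldh3a1. Aldh3a1 (chr11:61207537-61218421, plus strand), an aldehyde dehydrogenase for medium-chain and lipid-derived aldehydes, had 175, 179 and 182 CPM in FAK-WT cells, 369, 349 and 358 in FAK-/- cells and 722, 555 and 578 in FAK-kd cells. The groups were far apart relative to their spread (179 ± 3.36, 359 ± 10.1 and 618 ± 90.8 CPM, SD, n = 3). On the log2 scale FAK-WT against FAK-/- gave -1.001 ± 0.09 (adjusted p = 1.3e-06), FAK-WT against FAK-kd -1.79 ± 0.09 (adjusted p = 2.8e-09) and FAK-kd against FAK-/- cells 0.79 ± 0.09 (adjusted p = 3.1e-05).

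FAK-kd replicate 1 held 1.28 times the mean of the other FAK-kd libraries for Aldh3a1. Without it FAK-WT against FAK-kd gave -1.65 and FAK-kd against FAK-/- gave 0.65, both still called. Against FAK-/- cells the FAK-WT value lay at the threshold, between -1.02 and -0.97 when 1 library was left out, with an adjusted p of at most 2.7e-05. The exact permutation test of 3 libraries against 3 (two-sided) cannot give less than 0.1, which it gave here and for each other gene whose groups did not overlap.

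Ephx1 (chr1:180976210-181020904, minus strand), the microsomal epoxide hydrolase, was the other gene called in all 3 comparisons. It had 213, 189 and 195 CPM in FAK-WT cells, 92.5, 91.9 and 85.7 in FAK-/- cells and 173, 165 and 168 in FAK-kd cells. Both lines with a FAK protein were above FAK-/- cells without overlap, by log2 fold changes of 1.13 ± 0.07 for FAK-WT (adjusted p = 2.2e-08) and 0.91 ± 0.07 for FAK-kd cells (adjusted p = 5.1e-07). The difference between FAK-WT and FAK-kd was 0.22 ± 0.07 (adjusted p = 0.036), and it was 0.19 (adjusted p = 0.091) without FAK-WT replicate 1, 1 of the 5 of 9 such fits in which it was lost, as it was with the replicate block (adjusted p = 0.054). A log2 fold change beyond 1 was not shown by the test against that minimum (glmTreat, adjusted p = 0.32).

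The aldehyde dehydrogenase Aldh1a1, which makes retinoic acid, was near the detection limit, with 0, 0.585 and 0.894 CPM in FAK-WT cells, 0.21, 0.473 and 0.224 in FAK-/- cells and 0.18, 0.359 and 0.117 in FAK-kd cells. It was past the threshold in FAK-WT against FAK-kd cells (log2 fold change 1.67 ± 0.55, adjusted p = 0.047) although the libraries overlapped. The call was lost in 4 of the 9 fits that left out 1 library (adjusted p = 0.12 without FAK-kd replicate 1 and up to 0.306). It was also lost with the replicate block (adjusted p = 0.099). The groups held 53 and 22 counts, a ratio of 3.33 with a 95% interval of 1.99 to 5.75 for counting error only. Aldh1a3 was at most 1.26 CPM in any library.

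Of the exporters of glutathione conjugates, Abcc4 was higher in FAK-WT cells, with 16.4, 20.3 and 19.2 CPM, than in FAK-/- cells, with 10.9, 11.8 and 11.4, and FAK-kd cells, with 12.2, 11.7 and 11.2. The log2 fold changes were 0.77 ± 0.10 (adjusted p = 5.1e-05) and 0.74 ± 0.10 (adjusted p = 7.6e-05), and FAK-kd against FAK-/- gave 0.04 ± 0.09. Abcc1 was higher in FAK-WT cells than FAK-/- cells by 0.24 ± 0.07 (adjusted p = 0.028), a call lost in 5 of the 9 fits that left out 1 library (adjusted p = 0.059 without FAK-WT replicate 1 and up to 0.127) and with the replicate block (adjusted p = 0.057).

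One library moved with many of these genes. FAK-kd replicate 1 was the highest FAK-kd library in 29 of the 44 genes that passed the filter (65.9%), against 40.4% of all 12235 such genes, and its median log2 difference from the other FAK-kd libraries was 0.09 over the 44 genes and 0.00 over all. It exceeded the mean of replicates 2 and 3 by ratios of 1.18 for Mgst2, 1.17 for Srxn1 and Txnrd1, 1.16 for Hmox1 and 1.08 for Nfe2l2, while Gstm1 stood at 0.969. Leaving it out kept 17 of the 20 calls in FAK-WT against FAK-kd and 6 of the 11 in FAK-kd against FAK-/- cells. In the latter comparison, leaving out FAK-kd replicate 2 or 3 instead gave as few called genes or fewer, so such a loss was not particular to replicate 1.

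A wider list of 79 further genes of the same pathways, of which 77 had a row, was read in the same fit. In FAK-WT against FAK-/- cells 11 were higher and 10 lower (27.3% called), in FAK-WT against FAK-kd 10 and 15 (32.5%), and in FAK-kd against FAK-/- 10 and 3 (16.9%), beside the same backgrounds of 18.0%, 17.7% and 7.84%. The largest difference was that of Sod3, the extracellular superoxide dismutase (chr5:52363791-52371418, plus strand), with 6.29, 8.44 and 7.87 CPM in FAK-WT cells, 0.0899, 0.0394 and 0.032 in FAK-/- cells and 1.44, 1.56 and 1.7 in FAK-kd cells. The FAK-/- libraries held 5 counts in all, and the level was 147 times higher in FAK-WT (95% interval 62.5 to 453) and 28.2 times higher in FAK-kd cells (11.8 to 88.0), intervals that cover counting error only. FAK-WT was above FAK-kd cells by a log2 fold change of 2.34 ± 0.23 (adjusted p = 3.2e-06).

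Txnip, which binds and inhibits thioredoxin, was also lowest in FAK-/- cells, with 1.32, 1.54 and 1.41 CPM against 7.55, 4.55 and 4.99 in FAK-WT and 4.17, 2.79 and 3.31 in FAK-kd cells, and log2 fold changes of 1.82 ± 0.24 (adjusted p = 6.6e-05) and 1.27 ± 0.23 (adjusted p = 0.0025). The aldo-keto reductase Akr1c13 was higher in FAK-WT cells (1.14 to 1.61 CPM) than in FAK-/- (0.256 to 0.394) and FAK-kd cells (0.264 to 0.30), at 1.97 ± 0.38 (adjusted p = 0.0016) and 2.29 ± 0.38 (adjusted p = 0.00048). Gstt3, a theta-class transferase, was highest in FAK-/- cells, at -1.53 ± 0.42 against FAK-WT (adjusted p = 0.019) and -1.33 ± 0.37 for FAK-kd against FAK-/- cells (adjusted p = 0.038).

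Highest in FAK-kd cells were Oplah, the 5-oxoprolinase that returns glutamate in glutathione turnover, and the carbonyl reductase Cbr3. Oplah had 5.04, 2.47 and 2.45 CPM in FAK-WT and 6.36, 8.45 and 8.32 in FAK-kd cells (log2 fold change -1.58 ± 0.21, adjusted p = 6.1e-05). Cbr3 gave -1.64 ± 0.36 in FAK-WT against FAK-kd (adjusted p = 0.0045, with overlapping libraries) and 1.42 ± 0.31 in FAK-kd against FAK-/- cells (adjusted p = 0.011). Ggct, which cleaves gamma-glutamyl dipeptides, and Aldh1a7 were higher in FAK-WT than in FAK-kd cells, at 1.30 ± 0.30 (adjusted p = 0.0065) and 1.45 ± 0.39 (adjusted p = 0.016). Bach2, a relative of Bach1, was lower in FAK-WT than in FAK-kd cells (-3.11 ± 0.85, adjusted p = 0.017) at levels under 0.45 CPM in every library. All of these genes were weakly expressed, and FAK-WT replicate 1 held few counts for them.

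**Figure D4:**
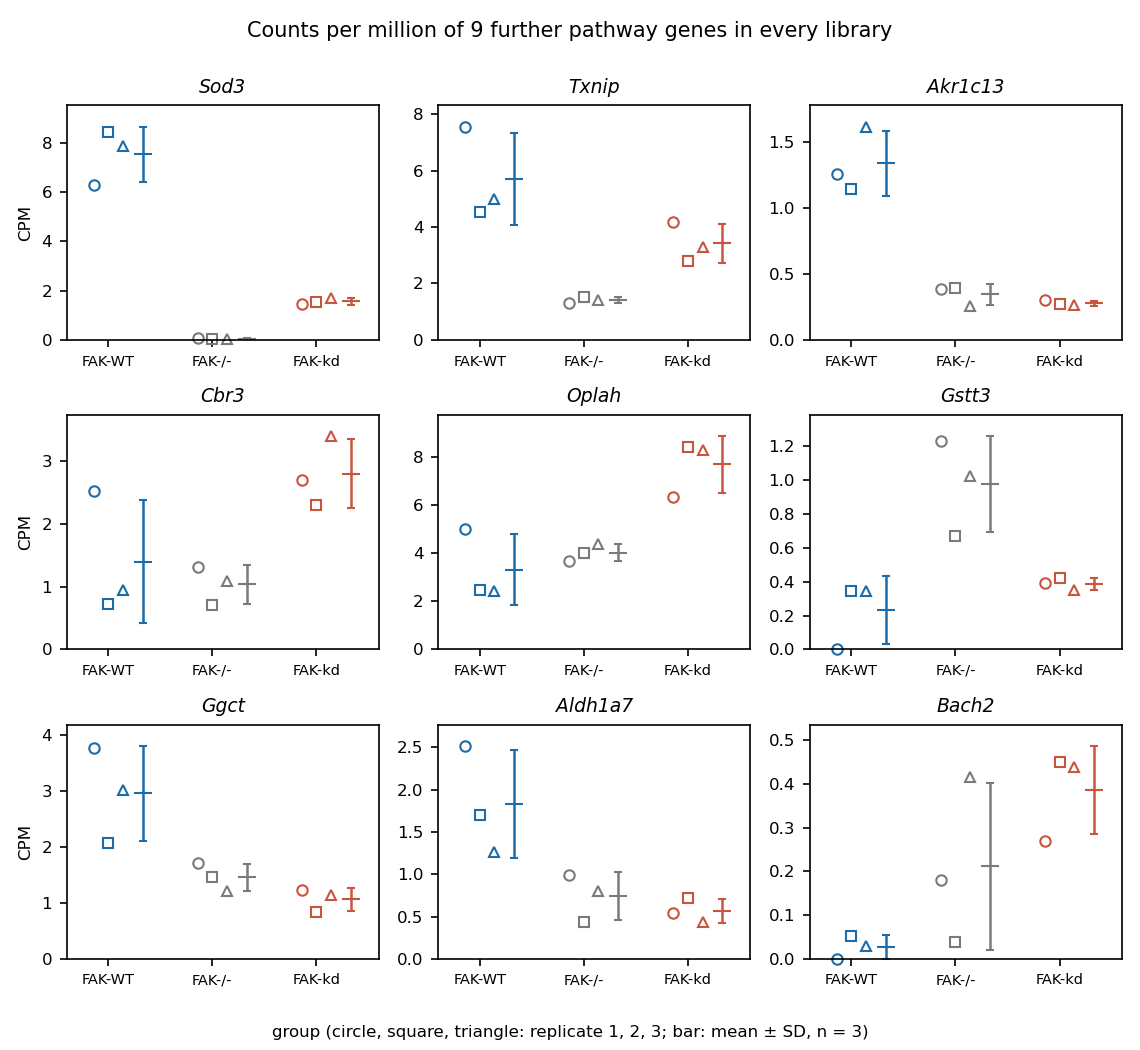
CPM of the 9 genes of the wider list that were past the threshold in at least 1 comparison, in every library by group. Circles, squares and triangles are replicates 1, 2 and 3, and bars give the mean ± SD (n = 3). Sod3 is near 0 in all FAK-/- libraries and lies between 6.29 and 8.44 CPM in the FAK-WT libraries, while Oplah is highest in the FAK-kd libraries.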

How the data were processed

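Gene counts of 9 RNA-seq libraries, 3 from each SCC line (FAK-/-, FAK-WT and FAK-kd), were grouped by their labels. Per the labels and the methods, the authors pseudoaligned paired-end reads with kallisto 0.43.1 and used tximport for gene totals. Deposited are expected counts (estimated counts) as whole numbers, not scaled to library size. The transcriptome release was not given in the sources used here. Pseudoalignment divides reads among similar transcripts, so near-identical copies can exchange counts. Symbols and positions were taken from GENCODE M21 (GRCm38). Shared words are the share of a gene's 31-base transcript words found in another gene.

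All 19044 genes were fitted with edgeR 4.0.16 in R 4.3.3 (TMM, estimateDisp, glmQLFit and glmQLFTest), with group as the only term and 1 estimate of spread for all 3 groups. The SE is the log2 fold change divided by the square root of F. CPM were compared by exact permutation. Library totals ran from 779755 to 37264636 counts, and intervals from counts cover counting error only. The replicates are described as biological, with no further detail, so p-values measure the spread between these samples.

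The members and the wider list were chosen with earlier results of these data known, though no cut-off on a measured value selected them. Values by library are given for genes past the threshold and for 10 further genes of the list (Nfe2l2, Keap1, Hmox1, Nqo1, Gclc, Gclm, Slc7a11, Gpx4, Txnrd1 and Srxn1), the others by role with up to 4 examples by adjusted p. Of the wider list, up to 4 genes past the threshold are named per comparison and direction. Alternatives were DESeq2 1.42.0, DESeq2 size factors, library size alone, filterByExpr, a fit of the compared groups only, a replicate block, glmTreat, a prior count of 2 and leaving out each library. The test was checked on simulated data in which 200 genes had large changes of equal size. The simulated spread was the same for every gene and library. Smaller changes and outlying libraries were therefore not checked.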

Additional observations from a re-analysis of the deposited data

How the results depend on the processing

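None of the 14, 20 and 11 called differences of the listed genes reversed its direction under the alternatives, which were not read for the other differences. In FAK-WT against FAK-/- cells the count of genes past the threshold was 2 in the fit reported and 1 with DESeq2, DESeq2 size factors, library size alone, filterByExpr, the compared groups only or the replicate block, since Aldh3a1 lies at the fold-change minimum, and it was 0 with glmTreat. Leaving out 1 library gave 1 to 2, 2 to 4 and 1 to 1 genes past the threshold in the 3 comparisons. The counts of called genes were 14, 20 and 11 and ranged from 7 to 25, 13 to 27 and 6 to 14. In FAK-WT against FAK-/- cells the count was 7 without FAK-WT replicate 2, 8 without FAK-WT replicate 3 and 25 without FAK-/- replicate 3. In FAK-WT against FAK-kd cells it was 13 without FAK-WT replicate 3. In FAK-kd against FAK-/- cells it was 7 without FAK-/- replicate 2, FAK-kd replicate 1 or FAK-kd replicate 2 and 6 without FAK-kd replicate 3. Genes called at the adjusted p alone in each of the 16 alternatives other than glmTreat, which tests a minimum fold change, numbered 7 of 14, 13 of 20 and 5 of 11. The replicate block gave 11, 15 and 11 called genes and 1, 2 and 1 past the threshold. Replicate numbers did not pair the libraries: deviations of same-numbered libraries in different groups had a mean r over genes of -0.00768 (9 pairs), against 0.00353 for different numbers (18 pairs). The depth of FAK-WT replicate 1 limits every gene under 3.78 CPM.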
